A study of Mus musculus with 4 samples.

Results

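The cells described here are those of the early head fold (EHF) mouse embryo library in which at least 1 UMI of *T* and at least 1 UMI of *Nkx1-2* were counted, a UMI being the tag that marks 1 captured RNA molecule. The rule was met by 258 of 3494 EHF cells (7.38%, exact binomial 95% interval 6.54 to 8.30). They are called double-positive cells below and were set against the 3236 other EHF cells, the 416 cells with *T* but no *Nkx1-2* UMI (*T*-only cells) and the 341 cells with *Nkx1-2* but no *T* UMI (*Nkx1-2*-only cells). Since the cells were chosen by their UMIs of *T* and *Nkx1-2*, the levels of these genes are given as a description.

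The study followed the descendants of primitive streak cells that express *T*, sampled by droplet single-cell RNA sequencing at the mid-late streak (MS-LS), no bud to early bud (OB-EB) and EHF stages, with 1 library of pooled embryos at each stage. All embryos carried TnEGP-CreERT2/+; R26Rtdtomato/R26Rtdtomato, so that Cre driven from the *T* locus switched on tdTomato after tamoxifen, which the pregnant females received by oral gavage in all 3 groups. Tamoxifen was given at E6+5h and embryos were taken at E6+21h for MS-LS, given at E6+21h and taken at E7+3h for OB-EB, and given at E7+7h and taken at E7+14h for EHF. The libraries held 3635, 3994 and 3494 cells, with medians of 4251, 2620.5 and 5584 UMIs per cell, and an EHF cell had between 1004 and 36920 UMIs. With 1 library per stage there was no replicate against which a difference could be tested, so every interval below covers counting error only, and stage and library cannot be told apart.

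*T* encodes the T-box factor brachyury, which acts in the primitive streak and nascent mesoderm, and *Nkx1-2* encodes a homeodomain factor of the caudal epiblast beside the streak. Cells of the caudal epiblast that hold both mesodermal and neural factors are known as neuromesodermal progenitors, which feed the spinal cord and the paraxial mesoderm of the trunk as the axis lengthens. Wnt and FGF signals, with Cdx and Hox factors downstream, are known to keep this population in place, whereas retinoic acid from the forming somites opposes them.

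The double-positive cells held 1 to 18 UMIs of *T* (median 2) and 1 to 9 UMIs of *Nkx1-2* (median 2). Many lay at the threshold, as 37 cells held exactly 1 UMI of each gene, 86 held 1 UMI of *T*, 91 held 1 UMI of *Nkx1-2* and 118 held at least 2 of each. Just outside it, 220 of the *T*-only cells held exactly 1 UMI of *T* and 207 of the *Nkx1-2*-only cells exactly 1 of *Nkx1-2*. Levels are given as the summed UMIs of a gene per 1000000 summed UMIs of the cells (CPM). *T* stood at 473 CPM (Poisson 95% interval 442 to 507) in the double-positive cells and at 404 (379 to 430) in the *T*-only cells, while *Nkx1-2* stood at 331 CPM (304 to 359) against 270.2 (249 to 293) in the *Nkx1-2*-only cells. Of the cells with *T*, 38.3% (258 of 674) also had *Nkx1-2*, compared with 12.1% of the cells without *T*.

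**Figure D1:**
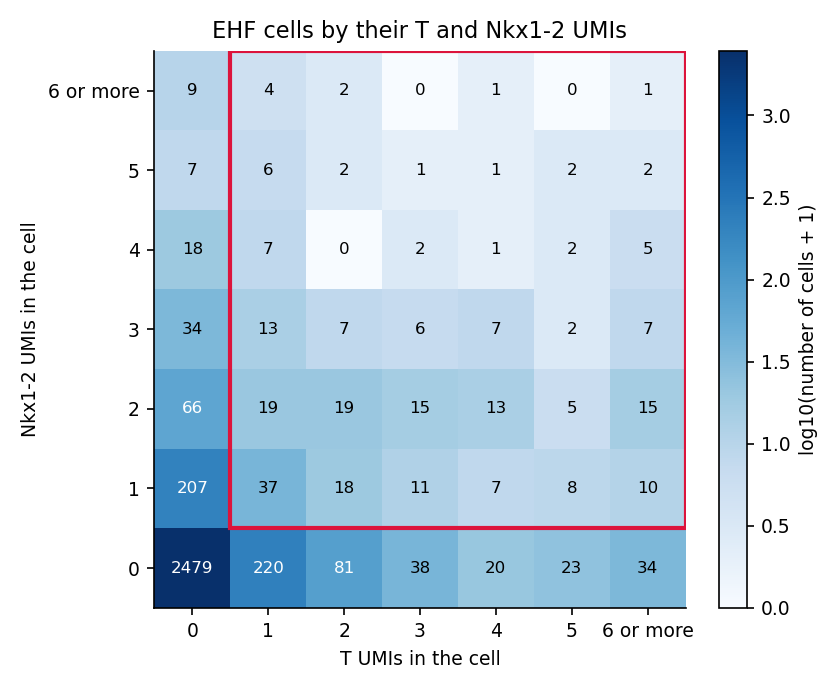
Number of EHF cells at each count of *T* UMIs (horizontal) and *Nkx1-2* UMIs (vertical), with the 258 double-positive cells inside the red box. Most of them hold few UMIs of either gene, with 37 at 1 UMI of each.

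Depth moved with the groups. The median was 6204.5 UMIs and 2240 genes in the double-positive cells, against 5273.5 UMIs in the *T*-only, 6311 in the *Nkx1-2*-only and 5498 in the other EHF cells. When each cell was thinned to 3000 UMIs, 250 of the 258 cells were deep enough and 144 of these (57.6%) kept both genes, and the share of *T* cells with *Nkx1-2* was 32.9% against 9.68% of cells without *T*. Free RNA was gauged from types that should lack both genes: among 96 cells rich in erythroid genes (median 4238 UMIs) 1 had *T*, 0 had *Nkx1-2* and 0 had both, and among 329 cells rich in visceral endoderm genes (median 6443 UMIs) 11 had *T*, 7 had *Nkx1-2* and 2 had both. A *T*-only cell may therefore hold *Nkx1-2* RNA that was not captured, and how far missed capture sets the contrasts below was not tested.

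The label of caudal epiblast was set beside *Wnt3a*, *Cdx1* and *Nefm*, which the rule did not use. These markers were chosen with earlier results of these data known, so their levels describe the cells and are no independent check. *Cdx1*, a caudal homeobox factor downstream of Wnt, stood at 741 CPM (701 to 782) in the double-positive cells, 312 in the *T*-only, 336 in the *Nkx1-2*-only and 114 in the other EHF cells. It was seen in 92.2% of the double-positive cells, against 53.1% of *T*-only, 56.0% of *Nkx1-2*-only, 5.21% of erythroid-rich and 5.78% of visceral endoderm-rich cells. After thinning, the share with *Cdx1* was 85.2% in double-positive and 48.1% in *T*-only cells. Thus the gene was found in nearly every double-positive cell, and in far fewer cells of the types that should lack it.

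*Nefm*, the medium neurofilament subunit, stood at 141 CPM in the double-positive cells, 49.0 in *T*-only and 41.8 in *Nkx1-2*-only cells. It was seen in 52.3% of the double-positive cells and 19.5% of the *T*-only cells, or 34.0% and 14.9% after thinning, against 13.7% of the visceral endoderm-rich cells. *Wnt3a*, the Wnt ligand of the caudal epiblast, stood at 42.2 CPM (33.2 to 53.0) in double-positive, 14.7 in *T*-only, 5.79 in *Nkx1-2*-only and 3.28 in all other EHF cells. It was seen in 24.0% of the double-positive cells, 7.93% of *T*-only and 3.52% of *Nkx1-2*-only cells, and in 0 of 96 erythroid-rich cells, which by a floor of 3 cells allows a share of cells with a UMI of up to 3.13%. The 3 markers were together in 42 double-positive cells (16.3%), against 9 *T*-only cells (2.16%) and 14 of all other EHF cells (0.433%). Conversely, 17 double-positive cells (6.59%) had none of them, against 169 *T*-only cells (40.6%) and 2357 of all others (72.8%). Exactly 1 of the 3 was seen in 34.5% of double-positive and 40.4% of *T*-only cells, and exactly 2 in 42.6% and 16.8%. No number of markers was set as a match to the label, and double-positive cells in clusters led by other genes are described below.

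The bases upstream of 4 genes are shown because *T* and *Nkx1-2* chose the cells, while *Wnt3a* and *Hoxb8* were among the genes with the highest ratio over all other EHF cells. Each run gives the 250 bases before the RefSeq start on GRCm38.p6, 5′ to 3′ on the strand of the gene, with capitals marking matches on either strand to CTTTGA or CTTTGT (TCF/LEF), GGTGTGA (T-box) or TTTATG (CDX), none of which share letters here.
*T*, chr17:8434173-8434422, plus strand: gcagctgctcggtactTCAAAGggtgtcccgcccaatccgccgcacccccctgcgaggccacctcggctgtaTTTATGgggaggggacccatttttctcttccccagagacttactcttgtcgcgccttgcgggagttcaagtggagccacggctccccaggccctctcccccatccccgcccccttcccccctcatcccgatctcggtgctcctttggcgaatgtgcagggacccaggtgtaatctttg
*Nkx1-2*, chr7:132599638-132599887, minus strand: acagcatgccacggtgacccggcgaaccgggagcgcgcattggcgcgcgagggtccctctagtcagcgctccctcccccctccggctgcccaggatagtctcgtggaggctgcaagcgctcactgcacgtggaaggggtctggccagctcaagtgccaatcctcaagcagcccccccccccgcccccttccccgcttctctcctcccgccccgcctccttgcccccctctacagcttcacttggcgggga
*Wnt3a*, chr11:59290752-59291001, minus strand: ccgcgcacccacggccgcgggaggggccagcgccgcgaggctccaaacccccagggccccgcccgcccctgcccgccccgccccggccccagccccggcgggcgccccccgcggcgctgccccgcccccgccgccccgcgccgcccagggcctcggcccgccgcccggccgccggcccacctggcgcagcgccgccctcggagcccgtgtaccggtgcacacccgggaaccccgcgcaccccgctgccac
*Hoxb8*, chr11:96281655-96281904, plus strand: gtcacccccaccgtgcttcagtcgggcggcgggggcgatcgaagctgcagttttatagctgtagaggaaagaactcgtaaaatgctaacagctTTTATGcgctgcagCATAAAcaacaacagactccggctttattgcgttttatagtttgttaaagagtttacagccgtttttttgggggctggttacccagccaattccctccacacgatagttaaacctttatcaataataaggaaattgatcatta
The *T* window held 1 TCF/LEF match, 234 bases before the start on the opposite strand, and 1 CDX match 178 bases before it. The *Hoxb8* window held 2 CDX matches, at 157 bases and, on the opposite strand, at 143 bases before the start, and the windows of *Nkx1-2* and *Wnt3a* held none of the 3 motifs. Over all 32851 promoters of this length the TCF/LEF letters occurred in 27.6%, the T-box letters in 3.33% and the CDX letters in 10.8%. In the 139 promoters found for genes at least 2-fold higher in double-positive than *T*-only cells (102 of 161 genes matched), the shares were 16.5%, 2.16% and 7.19%. Over all genes that entered the comparison they were 20.3%, 2.55% and 5.55%. For genes at least 2-fold higher than in all other EHF cells (129 of 187 matched, 179 promoters) the shares were 24.6%, 2.79% and 6.15%, against 20.0% (1740 of 8684 promoters), 2.54% and 5.44% over the entering genes. All these shares were below those of all promoters, and their order against the entering genes turned between the comparisons for TCF/LEF and T-box. A match in such a window is a description of its letters.

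Of the genes with enough UMIs to enter each comparison (at least 10 expected in the smaller group), 162 of 9058 (1.79%) were at least 2-fold higher in double-positive than *T*-only cells and 424 (4.68%) at least 2-fold lower. Against all other EHF cells, 189 of 9022 (2.09%) were at least 2-fold higher and 629 (6.97%) lower, and against *Nkx1-2*-only cells 205 of 8868 (2.31%) were higher and 201 (2.27%) lower. The median log2 ratio over all entering genes lay between -0.03 and -0.01 in the 3 comparisons. These shares are the background for each count of list members below. The counts depended on the rule, since applying it after thinning gave 53 higher and 239 lower than *T*-only cells, 113 higher than all others and 115 higher than *Nkx1-2*-only cells, and at least 2 UMIs of each gene gave 93 higher than *T*-only cells and 107 higher than all others.

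The caudal progenitor genes were higher in the double-positive cells. Of 20 that entered against *T*-only cells, 8 were at least 2-fold higher and 0 lower (median log2 ratio 0.75), against the background of 1.79%. The summed level of the list was 3817 CPM in double-positive, 2144 in *T*-only and 2215 in *Nkx1-2*-only cells. The 8 were *Cdx1*, *Cdx2*, *Sp8*, *Evx1*, *Hes3*, *Nefm*, *Grsf1* and *Wnt3a*. Of these, *Cdx1*, *Nefm* and *Wnt3a* are the label markers given above, so the list is not separate from them. The list was also chosen with earlier results of these data known, so its counts describe the cells and are no independent check. Against all other EHF cells 12 of 19 were higher (median 1.72) and 1 lower, and against *Nkx1-2*-only cells 9 of 20 were higher (median 0.72) and 1 lower. The lower gene was in both cases *Pou3f1*, a POU factor of anterior epiblast and neural cells.

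The log2 ratio of *Cdx1* was 1.25 (95% interval 1.12 to 1.38) over *T*-only and 1.14 (1.01 to 1.27) over *Nkx1-2*-only cells. *Grsf1*, which encodes an RNA-binding protein, stood at 923 CPM in double-positive, 420.1 in *T*-only, 384 in *Nkx1-2*-only and 188 in all other EHF cells. *Cdx2*, the second caudal homeobox factor, stood at 320.3 CPM against 158 in *T*-only and 221 in *Nkx1-2*-only cells, log2 ratios of 1.02 and 0.54. *Cdx1*, *Nefm*, *Grsf1* and *Wnt3a* were thus above both single-positive groups, whereas *Cdx2* was less than 2-fold above the *Nkx1-2*-only cells. *Fst*, the secreted activin and BMP antagonist follistatin, stood at 401 CPM against 243 in *T*-only and 139 in *Nkx1-2*-only cells. *Evx1*, a homeobox factor of the streak, stood at 21.7 CPM against 8.99 and 5.79. Other caudal genes followed *Nkx1-2* rather than the pair. *Gbx2*, a homeobox factor of the caudal epiblast and hindbrain, stood at 149 CPM in double-positive and 159 in *Nkx1-2*-only cells, a log2 ratio of -0.09 (-0.32 to 0.15), but at 78.5 in *T*-only cells. *Hes3*, a Hes repressor, stood at 25.7 CPM in double-positive, 4.495 in *T*-only and 41.4 in *Nkx1-2*-only cells, log2 ratios of 2.51 and -0.69.

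**Figure D2:**
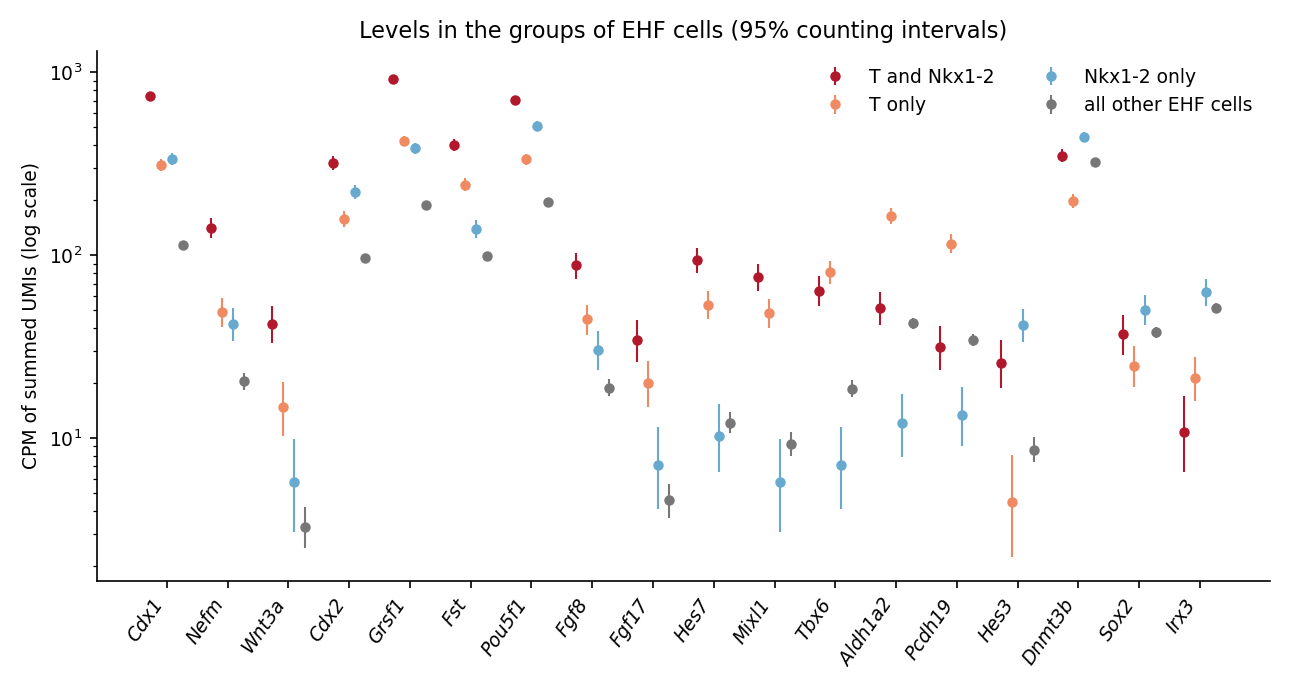
Level in CPM (log axis) of 18 genes in double-positive (*T* and *Nkx1-2*), *T*-only, *Nkx1-2*-only and all other EHF cells, with 95% Poisson intervals as bars. *Cdx1*, *Nefm* and *Wnt3a* stand highest in the double-positive cells, *Tbx6* and *Mixl1* stand far above the *Nkx1-2*-only cells, and *Aldh1a2* and *Pcdh19* stand highest in the *T*-only cells.

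On GRCm38, the build of the counts, GENCODE M21 (not the annotation used in the counting) places *T* at chr17:8434423-8442496 on the plus strand. On the minus strand lie *Nkx1-2* at chr7:132594878-132599637, *Wnt3a* at chr11:59248033-59290752, *Nefm* at chr14:68082590-68124846, *Cdx2* at chr5:147300805-147307270 and *Grsf1* at chr5:88659448-88676171. UMIs were counted per gene, so neither exon nor isoform could be told apart.

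Wnt ligands differed among themselves. Of 7 that entered against *T*-only cells, 2 were higher (*Wnt3a* and *Wnt8a*) and 2 lower. *Wnt8a*, a ligand of the caudal epiblast, stood at 31.4 CPM in double-positive, 10.2 in *T*-only and 26.7 in *Nkx1-2*-only cells, so its level was near that of the *Nkx1-2*-only cells. *Wnt5b*, which acts through the non-canonical branch, stood at 32.0 CPM against 16.4 and 10.7. Against all other EHF cells 3 of 6 ligands were higher and 1 lower. That median of 1.46 was negative when each gene of the pair had to reach 2 UMIs (-0.31), when the rule was applied after thinning (-0.70) and when 30 expected UMIs were asked for (-1.82).

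Among 13 feedback genes and factors of the Wnt pathway, 2 were higher than in *T*-only cells and 3 lower. The higher genes were *Cdx1* and *Notum*, a secreted enzyme that inactivates Wnt proteins, which stood at 20.0 CPM against 7.36. The lower ones were *Tcf7l1* (log2 ratio -1.34), *Tcf7l2* (-1.30) and *Myc* (-1.60). Against all other EHF cells 7 of 12 were higher and 3 lower. *Sp5*, a target of Wnt signalling, stood at 85.6 CPM in double-positive, 69.5 in *T*-only, 31.2 in *Nkx1-2*-only and 20.2 in all other cells, and *Axin2*, a feedback inhibitor of the pathway, at 44.0, 33.1, 26.7 and 16.3. Both were higher than in all other cells, but the interval of each ratio over *T*-only cells included 0 (0.30, -0.02 to 0.63 for *Sp5*, and 0.41, -0.06 to 0.88 for *Axin2*). Of 12 Wnt receptors and modulators that entered against *T*-only cells, 2 were at least 2-fold higher and 0 lower. They were *Fzd10*, a frizzled receptor, at 28.0 against 12.3 CPM, and *Rspo1*, a secreted enhancer of Wnt signalling, at 10.8 against 4.90 CPM (19 and 12 UMIs, log2 ratio 1.15, 0.03 to 2.32).

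The FGF ligand list was close to the level of *T*-only cells in sum, at 239 against 217 CPM, and above that of *Nkx1-2*-only (103) and all other cells (114). *Fgf8* stood at 87.9 CPM in double-positive, 44.5 in *T*-only, 30.3 in *Nkx1-2*-only and 18.9 in all other EHF cells, *Fgf17* at 34.3, 20.0, 7.12 and 4.56, and *Fgf4* at 23.4, 14.3, 4.01 and 2.79. Over *T*-only cells the log2 ratios were 0.98 (0.62 to 1.35) for *Fgf8*, 0.77 for *Fgf17* and 0.71 for *Fgf4*, below the 2-fold mark in all 3. None of 6 FGF ligands was thus at least 2-fold higher than in *T*-only cells and 1 was lower, whereas 3 of 5 were higher than in *Nkx1-2*-only cells. Of the receptors and targets, *Etv4*, an ETS factor induced by FGF, stood at 80.5 CPM against 34.7 in *T*-only cells and was the single gene of 13 above 2-fold. Against all other cells 6 of 14 were higher, among them *Dusp6*, a phosphatase that damps ERK, at 71.4 against 27.5 CPM, and *Il17rd*, another FGF antagonist, at 25.1 against 6.28 CPM. The 2 lower ones were the receptors *Fgfr2* and *Fgfr3*.

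Hox genes give cells their address along the body axis, and the largest ratios over *T*-only cells were those of 3 genes of the b cluster. Of 16 that entered against *T*-only cells 3 were higher, *Hoxb7*, *Hoxb8* and *Hoxb9*, and 0 lower (median 0.21), whereas against *Nkx1-2*-only cells 9 of 14 were higher and 0 lower (median 1.24), and against all other cells 7 of 10 were higher (median 1.45). *Hoxb8* stood at 37.1 CPM in double-positive, 13.9 in *T*-only, 6.68 in *Nkx1-2*-only and 4.72 in all other cells. *Hoxb7* stood at 18.3 CPM against 5.72 in *T*-only and 4.45 in *Nkx1-2*-only cells, and *Hoxb9* at 12.6 against 4.90 and 2.23. The more 3′ gene *Hoxb1* stood at 159 CPM in double-positive, 131 in *T*-only and 65.9 in *Nkx1-2*-only cells. *Hoxaas3*, an antisense transcript of the Hoxa cluster, stood at 111 CPM against 51.9 and 16.0, but reads from overlapping genes may be exchanged since the use of strand in the counting is not given in the sources used here.

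**Figure D3:**
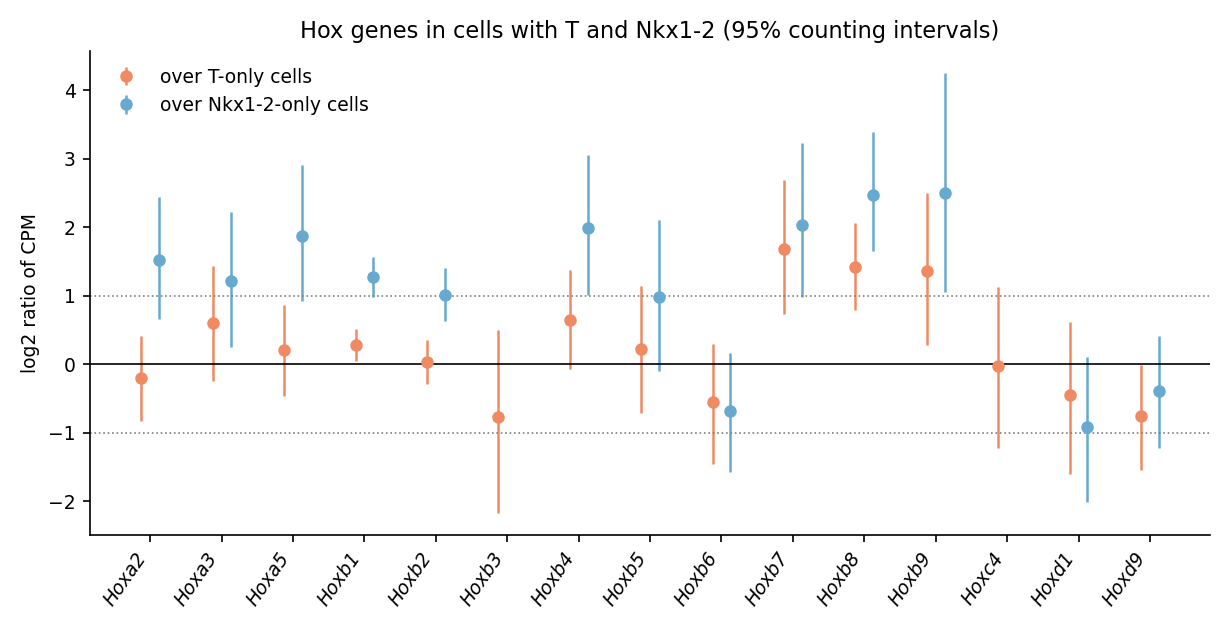
Log2 ratio of CPM of Hox genes in double-positive over *T*-only cells and over *Nkx1-2*-only cells, with 95% counting intervals as bars and dotted lines at 2-fold. *Hoxb3* and *Hoxc4* did not enter the second comparison. *Hoxb7*, *Hoxb8* and *Hoxb9* lie above 1 against both groups.

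Genes of nascent and presomitic mesoderm set the double-positive cells between the single-positive groups. Of 18 that entered against *T*-only cells 0 were at least 2-fold higher and 6 lower (median -0.70), against the background of 4.68%, whereas of 17 that entered against *Nkx1-2*-only cells 11 were higher and 0 lower (median 1.39). The summed level of the list was 967 CPM in double-positive, 1411 in *T*-only and 299.6 in *Nkx1-2*-only cells. *Tbx6*, the T-box factor of presomitic mesoderm, stood at 63.9 CPM against 80.5 in *T*-only and 7.12 in *Nkx1-2*-only cells, and its log2 ratio over *T*-only cells was -0.33 (-0.68 to 0.01). The Notch ligands *Dll1* and *Dll3* stood at 46.8 and 32.5 CPM, against 62.1 and 53.5 in *T*-only and 5.79 and 2.67 in *Nkx1-2*-only cells. *Hes7*, the oscillating repressor of the segmentation clock, was above both at 93.6 CPM against 53.5 and 10.2. So was *Mixl1*, a homeobox factor of the streak, at 75.9 CPM against 48.2 and 5.79. Within this list *Hes7*, *Mixl1* and *Fgf8*, given above with the FGF ligands, were hence above their level in *T*-only cells. *Dll3* and the genes below were under it.

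The 6 lower genes included *Mesp1*, a factor of early mesoderm, at 30.3 against 62.9 CPM, and *Pcdh19*, a cell adhesion protocadherin, at 31.4 against 116 CPM. *Rspo3*, another enhancer of Wnt signalling, stood at 139.9 CPM against 230.1 in *T*-only and 37.8 in *Nkx1-2*-only cells. All 5 paraxial mesoderm genes that entered were at least 2-fold lower than in *T*-only cells (median -1.96). *Aldh1a2*, the enzyme that makes retinoic acid in this tissue, stood at 51.4 CPM against 164 in *T*-only and 12.02 in *Nkx1-2*-only cells. *Meox1*, a somite homeobox factor, stood at 8.56 against 42.9 CPM, a log2 ratio of -2.33. Lateral and extraembryonic mesoderm genes were lower as well, with 6 of 10 at least 2-fold lower than in *T*-only cells, 7 of 9 lower than in *Nkx1-2*-only cells and 10 of 12 lower than in all others. *Hand1*, a factor of lateral and extraembryonic mesoderm, stood at 59.9 CPM against 105, 122 and 135, and 42.9% of its UMIs came from 5 double-positive cells.

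The *T*-only cells also held the axial cells, and here the difference was greatest. Of 14 genes of the node and axial mesoderm 13 were at least 2-fold lower in double-positive cells (median -2.98) and 0 higher, *Sox9* (-0.89) being the exception. *Noto*, a homeobox factor of the node, had 4 UMIs in double-positive and 85 in *T*-only cells (2.28 against 34.7 CPM). *Foxj1*, which directs the building of motile cilia, had a log2 ratio of -3.04, and *Chrd*, the BMP antagonist chordin, had 1 UMI against 53 (-5.25, -10.58 to -2.71). The *T*-only group thus held node genes that the double-positive cells largely lacked. Against all other cells 4 of 9 entering genes were lower, and *Noto*, at 2.28 against 4.72 CPM, changed direction, to a log2 ratio of 0.32, when only cells with at least 5000 UMIs were kept.

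Neural genes differed less than mesoderm genes in these counts. Against *T*-only cells 0 of 8 passed 2-fold in either direction (median 0.42), and against *Nkx1-2*-only cells 0 of 9 were higher and 3 lower (median -0.44). *Sox2*, the factor that marks neural and pluripotent cells, stood at 37.1 CPM (28.6 to 47.3) in double-positive, 24.9 in *T*-only, 50.3 in *Nkx1-2*-only and 37.9 in all other cells. Its log2 ratio was 0.57 (0.05 to 1.10) over *T*-only, -0.44 (-0.90 to 0.01) over *Nkx1-2*-only and -0.03 (-0.42 to 0.34) over all others. It was seen in 21.7% of double-positive, 9.62% of *T*-only and 24.9% of *Nkx1-2*-only cells, or 10.4%, 6.02% and 14.3% after thinning. Hence *Sox2* did not set these cells apart from the rest of the embryo. Its relative *Sox3* stood at 6.28 CPM against 20.9 in *Nkx1-2*-only cells, and *Irx3*, a factor of the neural plate, at 10.9 against 62.8, the lower genes there being *Sox3*, *Irx3* and *Irx5*.

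Of 10 pluripotency genes that entered against *T*-only cells, 2 were higher and 0 lower, and against all other cells 1 of 13 was higher and 6 lower. The gene above all others was *Pou5f1*, the core factor Oct4, at 703 CPM in double-positive, 336 in *T*-only, 512 in *Nkx1-2*-only and 197 in all other cells. *Dnmt3b*, the de novo DNA methyltransferase of the epiblast, stood at 350.5 CPM against 197, 442 and 323. *Slc7a3*, a transporter of cationic amino acids, was at 13.7 CPM against 2.45 in *T*-only and 24.5 in *Nkx1-2*-only cells. As with *Gbx2* and *Hes3*, *Dnmt3b* and *Slc7a3* stood between the single-positive groups.

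Other signals and cell shape genes were compared in the same way. Of 12 Notch genes, 1 was higher and 2 lower than in *T*-only cells, while 5 of 11 were higher and 0 lower than in *Nkx1-2*-only cells. *Notch1*, the receptor, stood at 17.1 CPM against 41.7 in *T*-only cells. Of 14 genes of the BMP and Nodal pathways 0 were higher and 4 lower than in *T*-only cells, and *Id2*, a target of BMP, stood at 98.2 CPM against 176 in *T*-only and 414 in all other EHF cells. Epithelial genes were lower for 4 of 11 and higher for 0, led by the keratins *Krt8* (130.2 against 310.2 CPM) and *Krt18* (161.6 against 411.5), although *Cdh1*, the adhesion molecule E-cadherin, was higher at 104 against 52.7 CPM. Mesenchymal genes were lower for 4 of 11 and higher for 0.

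Markers of other cell types were at low levels. Summed over the list, the 8 visceral endoderm genes stood at 414 CPM in double-positive, 680 in *T*-only and 3191 in all other cells, and all 8 were at least 2-fold lower than in the others. The UMIs were held by few cells, since *Ttr*, a secreted carrier protein of the visceral endoderm, had 268 UMIs of which 66.0% were in 5 cells. Erythroid genes stood at 41.7 against 336 CPM and extraembryonic ectoderm genes at 88.5 against 338 CPM, with all 6 and all 8 entering genes lower. Of 8 endothelial genes, 4 had 0 UMIs in the double-positive cells. Against all others 3 of 3 entering rostral neural genes, 3 of 5 cardiac genes, 1 of 2 surface ectoderm genes and 5 of 6 definitive endoderm genes were lower, and 0 of 1 germ cell genes passed 2-fold. None of the lists in this paragraph had a gene at least 2-fold higher than in all others.

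Among the 12 genes with the highest ratio over *T*-only cells were several outside these lists. *Apln*, the ligand of the apelin receptor, stood at 104 CPM in double-positive, 29.0 in *T*-only, 47.6 in *Nkx1-2*-only and 31.5 in all other cells, a log2 ratio of 1.85 (1.45 to 2.27) over *T*-only cells. *Plpp4*, a lipid phosphatase, had the largest ratio, 3.07 (1.53 to 5.05), from 24 UMIs against 4. *Etnk2*, an ethanolamine kinase, had 22 UMIs against 5 (2.62, 1.18 to 4.38). Of these, *Plpp4* stood higher in *Nkx1-2*-only cells (16.9 CPM) than in double-positive cells (13.7 CPM). Over all other EHF cells *Rxrg*, a retinoid X receptor, reached 2.94, at 30.8 against 4.03 CPM. Over *Nkx1-2*-only cells *Arg1*, arginase, had the largest ratio, 5.31 (2.73 to 10.66), from 31 UMIs against 1, yet it was lower than in *T*-only cells at 17.7 against 33.9 CPM. *Gal*, the neuropeptide galanin, was at 110 CPM against 17.8 in *Nkx1-2*-only and 126 in *T*-only cells. At the other end, *Pitx1*, a homeobox factor, had 4 UMIs in double-positive and 46 in *Nkx1-2*-only cells (2.28 against 20.5 CPM), and *Pmp22*, a peripheral myelin protein, stood at 17.1 against 77.5 CPM.

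The double-positive cells varied among themselves. They were divided by which of the 2 genes had more UMIs, giving 128 cells with more *T* (49.6%), 65 with equal counts and 65 with more *Nkx1-2* (25.2%), a range cut at the point where 65 cells lie and not a set of types. Median depths were 6121.5, 5812 and 6628 UMIs. *Mixl1* stood at 124 CPM in cells with more *T*, 49.7 in cells with equal counts and 12.6 in cells with more *Nkx1-2*, a log2 ratio of 3.30 (2.13 to 4.78) between the ends. *Tbx6* had the same order, at 94.9, 54.5 and 16.8 CPM (2.50, 1.45 to 3.76). *Dll1* differed by 3.06 and *Dll3* by 3.03 on the log2 scale, and *Aldh1a2* had 67 UMIs in cells with more *T* and 3 in cells with more *Nkx1-2* (3.64, 2.03 to 5.95). The summed nascent mesoderm list went from 1331 to 884 and 389 CPM across the range, so mesoderm genes were concentrated in the cells richer in *T*.

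Only listed genes and genes named for their ratios were compared between the ends. The share over all genes was not computed, so the counts have no background. Of 128 such genes with enough UMIs, 39 had an interval above 0 between cells with more *T* and cells with more *Nkx1-2*, and 16 had one below 0. Among the latter *Hes3* stood at 15.2 CPM in cells with more *T* and 44.1 in cells with more *Nkx1-2* (-1.54, -2.66 to -0.47), *Dnmt3b* at 280 and 505 (-0.85), and the tight junction gene *Cldn7* at 9.37 and 42.04 (-2.17, -3.56 to -0.92). Of the 45 UMIs of *Cldn7*, 44.4% were in 5 cells, and endoderm and epithelial genes moved with it, with *Ttr* at 151 and 242 CPM, *Rbp4*, a retinol carrier, at 96.1 and 141, and *Krt18* at 102 and 179. The part of those cells in these differences was not tested. *Sox2* stood at 30.5 and 42.04 CPM, but the interval of its ratio included 0 (-0.47, -1.36 to 0.45). Of the label markers, *Cdx1* stood at 827 and 721 CPM, *Wnt3a* at 51.5 and 35.7, and *Nefm* at 163 and 105 (0.63, 0.16 to 1.13). *Grsf1* was likewise higher where *T* was higher (0.44, 0.27 to 0.62), and *Cdx2* stood at 329 and 326 CPM. These label markers, *Grsf1* and *Cdx2* were accordingly present at both ends, with differences under 2-fold. Other genes of the caudal list differed by more, in opposite directions. *Fgf17* stood at 45.7 CPM in cells with more *T* and 18.9 in cells with more *Nkx1-2* (1.27, 0.20 to 2.50), and *Hes3* had the reverse order.

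**Figure D4:**
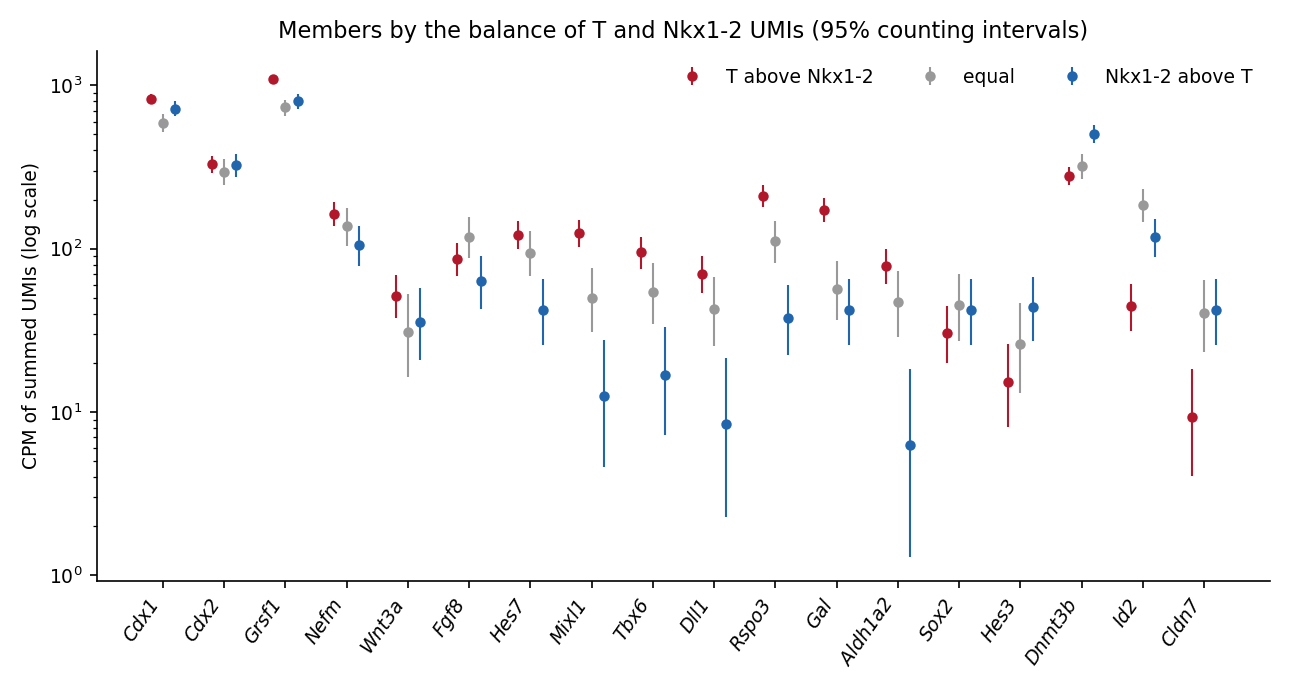
Level in CPM (log axis) of 18 genes in double-positive cells with more *T* than *Nkx1-2* UMIs, equal counts, or more *Nkx1-2*, with 95% Poisson intervals as bars. *Mixl1*, *Tbx6*, *Dll1* and *Aldh1a2* are highest where *T* is higher, *Hes3*, *Dnmt3b* and *Cldn7* where *Nkx1-2* is higher, and *Cdx1* and *Cdx2* differ by less than 2-fold between the ends.

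Neuromesodermal progenitors are often described by joint detection of neural and mesodermal factors. Every double-positive cell held the mesodermal factor *T* by the rule, and 56 of them (21.7%) also held *Sox2*. *Sox2* was then counted together with *Tbx6*, the factor of presomitic mesoderm, in each double-positive cell. Both were seen in 11 cells (4.26%), *Sox2* alone in 45 (17.4%), *Tbx6* alone in 69 (26.7%) and neither in 133 (51.6%). Without *Tbx6* itself, the other 22 genes of the nascent mesoderm list summed to 1569.7 CPM (1459.5 to 1686) in the cells with *Tbx6* alone and 471 (400.3 to 551) in those with *Sox2* alone. The caudal list was close in both, at 4196 and 3886 CPM. At these depths 0 UMIs of a gene at the level of *Sox2* does not show its absence from a cell.

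All EHF cells were also clustered without *T* and *Nkx1-2*, and 22 of 30 clusters held at least 1 double-positive cell. Clusters 9, 13 and 23 held 182 of the 258 (70.5%). Cluster 9 (63 of its 142 cells were double-positive, 44.4%) was led by *Cdx1*, *Nefm*, *Pmaip1*, *Grsf1* and *Pou5f1*. Cluster 23 (58 of 74, 78.4%) was led by *Cdx1*, *Hoxaas3*, *Nefm* and *Grsf1*, and cluster 13 (61 of 120, 50.8%) by *Gal*, *Mixl1*, *Tbx6*, *Hes7* and *Dll1*. Cluster 6 held 23 double-positive cells of 168 (13.7%) and 104 *Nkx1-2*-only cells, and was led by *Hes3*, *Ptn* and *Gbx2*. Cluster 8 held 18 of 154 (11.7%) and 62 *T*-only cells. It was led by *Mesp1*, *Cdx4*, *Evx1os*, *Pcdh19* and *Hoxaas3*, with *Hoxd9* and *Foxf1* also among its leading genes. Hence the pair of genes spanned clusters led by caudal genes, by presomitic genes and by *Mesp1*. The label of caudal epiblast does not describe *Mesp1*, *Pcdh19* and *Foxf1* of cluster 8, nor the presomitic genes that led cluster 13. Cluster 8 was also led by *Cdx4*, a gene of the caudal list, and by *Hoxaas3* and *Evx1os*, both high over all other EHF cells. In cluster 13, which *Cdx1* also helped to define, the double-positive cells held label markers as well as presomitic genes. Against those of cluster 9, *Cdx1* stood at 825 and 839.8 CPM, *Wnt3a* at 54.9 and 46.7 and *Nefm* at 120.2 and 178. *Tbx6* stood at 175 in cluster 13 against 20.4 in cluster 9, *Dll1* at 133 against 2.92 and *Aldh1a2* at 146 against 2.92, while *Fgf8* was similar at 86.2 and 84.6. The other 35 cells were spread over 17 clusters, among them 5 in cluster 27, which held 40 *T*-only cells and was led by the cilium genes *Fam183b*, *Tppp3* and *Foxj1*.

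The genes left out of the clustering still differed between these clusters. In their double-positive cells *T* stood at 148 CPM for cluster 6, at 374 for 8, at 419.9 for 9, at 692 for 13 and at 668 for 23. *Nkx1-2* stood at 427, 181, 417, 277 and 415 CPM in the same order. Cluster 23 thus held both genes at a high level, cluster 6 had the least *T* and cluster 8 the least *Nkx1-2*.

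The tdTomato reporter followed *T* and not *Nkx1-2*. It stood at 73.6 CPM (61.5 to 87.5) in double-positive, 83.8 in *T*-only, 15.6 in *Nkx1-2*-only and 13.8 in cells with neither gene. It was seen in 33.7% of double-positive and 33.7% of *T*-only cells, against 7.33% of *Nkx1-2*-only cells and 6.09% of cells with neither. Within the double-positive cells it stood at 101 CPM where *T* was higher and 37.8 where *Nkx1-2* was higher.

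Cells with both genes were rare in the earlier libraries. At MS-LS 3 of 469 *T* cells had *Nkx1-2* (0.640%), at OB-EB 7 of 664 (1.05%) and at EHF 258 of 674 (38.3%). Cells with *Nkx1-2* numbered 18, 25 and 599 in all. The *T* cells had median depths of 5170, 3261.5 and 5716 UMIs, and when each was thinned to 2000 UMIs both genes were found in 0 of 230, 4 of 384 (1.04%) and 72 of 356 (20.2%) *T* cells. The *T* cells of MS-LS were thus nearly as deep as those of EHF, and those of OB-EB were shallower.

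With so few such cells before EHF, caudal genes were followed in all *T* cells of each library. *Nkx1-2* stood at 1.01 CPM at MS-LS, 3.16 at OB-EB and 138 at EHF, while *T* itself stood at 236, 465 and 433. *Cdx1* stood at 3.37, 7.51 and 491 CPM, *Cdx2* at 14.8, 24.9 and 226, *Nefm* at 6.06, 16.2 and 87.4, and *Wnt3a* at 3.03, 4.74 and 26.2. The Hox gene *Hoxb1* had the same order, at 2.69, 10.7 and 142 CPM. The opposite order was found for genes of the early streak and epiblast. *Eomes*, a T-box factor of the early streak, stood at 223, 99.6 and 13.3 CPM, the growth factor gene *Fgf5* at 94.6, 91.3 and 4.29, and *Tdgf1*, the Nodal co-receptor Cripto, at 257, 149 and 4.05. *Pou5f1* (518, 377 and 489 CPM) and *Sox2* (34.3, 40.7 and 30.01) differed by less than 2-fold between any pair of libraries.

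**Figure D5:**
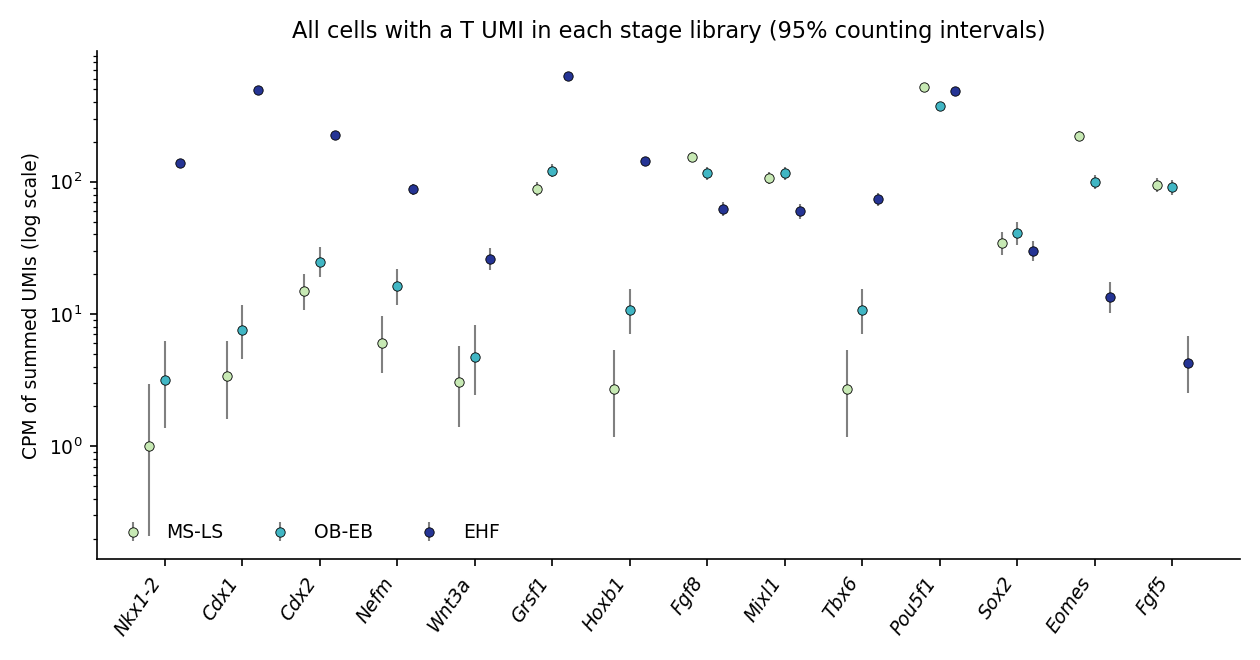
Level in CPM (log axis) of selected genes in all cells with *T* at MS-LS, OB-EB and EHF, with 1 library per stage, with 95% Poisson intervals as bars. *Nkx1-2*, *Cdx1*, *Cdx2*, *Nefm* and *Wnt3a* are highest at EHF, and *Eomes* and *Fgf8* at MS-LS.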

How the data were processed

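Single cells were sequenced on a droplet platform. The deposited counts are whole UMIs per gene and cell, which the authors made with Cell Ranger 3.0.2 on GRCm38 and filtered in R 3.6.1 with Seurat 3, per the submitters' processing notes. The second EHF table held the same counts in all 65128160 places, with 21 gene names spelled otherwise, and was used as the same library. Different libraries shared 12 to 18 cell barcodes. UMIs were summed over the cells of a group and given per 1000000. Intervals were exact Poisson for levels, exact binomial for shares and exact conditional binomial for log2 ratios, at 95%. Only those of the log2 ratios were tested on simulated data, which were Poisson counts without added spread between cells. A gene with 0 UMIs took a floor of 3. No p-value was computed, since each stage had 1 library. Genes entered a comparison with at least 10 UMIs expected in the smaller group at equal levels, and were counted past 2-fold.

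The genes named were the 12 with the largest ratios in each direction of the 3 comparisons, leaving out *T*, *Nkx1-2*, vector, mitochondrial, ribosomal and sex-linked genes, with listed genes and the Hox genes. Cells and lists were chosen with earlier results of these data known. Cells rich in erythroid or visceral endoderm genes had over 0.5% of their UMIs in that list. Clusters used 2000 variable genes without *T* and *Nkx1-2*, 50 components and a resolution of 4.5 (Seurat 5.3.0, R 4.3.3). Scrublet (scanpy 1.11.5) marked 26 cells as doublets, which were kept. Of the 175 cells with the highest scores 21 were double-positive, against 258 of all 3494 cells, and the part of doublets was not tested. Sums and intervals came from scipy 1.17.1, with numpy 2.4.6 and pandas 2.3.3 under Python 3.11.15, and plots from matplotlib 3.10.9. Results on a few genes are not reported here.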

Additional observations from a re-analysis of the deposited data

How the results depend on the processing

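The 258 double-positive cells became 118 with at least 2 UMIs of each gene, 144 when the rule was applied after thinning to 3000 UMIs and 165 in cells called female. The thinned rule gave 53 genes higher and 239 lower than in T-only cells (162 and 424), 113 higher than in all other cells (189) and 115 higher than in Nkx1-2-only cells (205). With at least 2 UMIs of each gene, 93 genes were higher than in T-only and 107 higher than in all other cells. Asking for 30 expected UMIs left 40 higher and 104 lower than in T-only cells, 75 and 269 against all others, and 63 and 43 against Nkx1-2-only cells. Without a filter the counts were 2448 and 2168, 4573 and 1406, and 2096 and 1763, since genes with very few UMIs then enter. Cells with at least 5000 UMIs, low mitochondrial share or low Scrublet scores, equal weight for each cell, and leaving out the 35 cells of sparsely hit clusters (chosen after seeing the data) kept the 6 counts within 1.5 times. Of 896 alternatives for 112 ratios past 2-fold, 862 stayed past it in the same direction. *2010107G23Rik* over T-only cells changed direction (-0.019) under the thinned rule, *Noto* over all others (0.32) in cells with at least 5000 UMIs, and the median of the Wnt ligands over all others with at least 2 UMIs (-0.31), the thinned rule (-0.70) and 30 expected UMIs (-1.82). The cause was not tested. At resolution 2 the 3 fullest clusters held 79.8% of the cells, against 70.5%. No paired analysis was possible because the replicate tables of EHF hold the same library and no result comes from a test.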

Other observations

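Cell cycle genes differed little between the groups. Of 16 that entered, 1 was higher and 1 lower than in T-only cells, 1 was higher and 2 lower than in all other EHF cells, and 0 passed 2-fold in either direction against Nkx1-2-only cells. The gene higher in the first and second comparison was *Cdkn1a*, which encodes the p21 inhibitor of cyclin-dependent kinases, at 77.1 CPM in double-positive, 35.5 in T-only, 49.4 in Nkx1-2-only and 20.5 in all other cells. *Cdkn1c*, which encodes the related inhibitor p57, stood at 34.3, 80.1, 67.2 and 90.3 CPM. The cyclin gene *Ccnd2* stood at 429 CPM against 291 in T-only, and *Ccnd3* at 74.8 against 120. Members of each of these families thus stood in opposite orders.

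Retinoic acid genes were also uneven. Of 9 that entered, 1 was higher and 2 lower than in T-only cells, and the lower ones were *Aldh1a2* and *Crabp1*, which encodes a binding protein of retinoic acid, at 55.4 against 164 CPM. *Cyp26a1*, which encodes an enzyme that degrades retinoic acid, stood at 18.8 CPM against 22.9, 11.1 and 32.6. The gene higher than in T-only cells was *Rarg*, which encodes a retinoic acid receptor, with 42 UMIs against 29 (log2 ratio 1.02, 0.30 to 1.75).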
